A study of Homo sapiens with 6 samples.

Results

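The NF-κB subunits and their feedback regulators were examined as a group of 10 genes chosen by name. No measured value entered the rule, but the choice was made with earlier results of these data known. They are the subunit genes NFKB1, NFKB2, RELA and RELB, the inhibitor genes NFKBIA, NFKBIE and NFKBIZ, the ubiquitin-editing genes TNFAIP3 and TNIP1, and BIRC3. For each name the entry on the primary chromosome was taken. These 10 were among 41497 named entries in the deposited tables and among 14860 genes that passed the filter on low counts. All 10 passed that filter, and each had 1 entry.

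The libraries were RNA-seq libraries of HK-2 cells, an immortalized line of human proximal tubular epithelial cells, made to measure how tubular cells respond to TGF-β1, a cytokine that promotes renal fibrosis. Both groups were the wild-type line. One group of 3 libraries came from untreated control cells at 24 hours, and the other group of 3 came from cells given TGF-β1 for 24 hours. Per the labels, cells were grown with fetal bovine serum, whereas the methods of the study describe TGF-β treatment in serum-free medium. Whether the control cells were also without serum is not stated, so a difference in serum and the treatment cannot be told apart. The libraries came from 1 cell line, and the labels do not say that replicates were separate cultures. The p values therefore measure only the spread between these libraries, which may be technical. A lower value in a bulk library can mean fewer cells that express a gene or less RNA per cell, which cannot be told apart here.

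NF-κB is a family of dimeric transcription factors. In the classical pathway, the IκB kinase complex marks the inhibitor IκBα for destruction, and dimers of p50 and RelA enter the nucleus. In the alternative pathway, the kinase NIK leads to processing of p100 to p52, the partner of RelB. NF-κB dimers switch on the genes of several of their own subunits and inhibitors, so these genes form feedback loops. In renal tubular cells the pathway is known for its control of cytokine, chemokine and survival genes.

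Levels are given as CPM, the counts of a gene divided by the library size in megacounts (M), with TMM scaling, a correction for differences in RNA composition between libraries. Total counts ranged from 21.9 to 26.9 M per library. Log2 values correlated at 0.989 to 0.992 within groups and at 0.961 to 0.966 between groups, over genes. TGF-β1 replicate 1 stood apart from the other TGF-β1 libraries. Its counts differed from them with a chi-square per degree of freedom of 18.0 and 16.6, compared with 4.20 to 5.86 for every other pair within a group. For the 10 genes and the largest called changes of each list, a call or direction that changed without it is given. All 6 TGF-β response genes that served as a check of the treatment rose, with a median log2 fold change of 1.99. Among 12 tubular epithelial markers, 3 were below 1 CPM in every library, and LRP2 (megalin, a proximal tubule receptor) was at 0. The summed CPM of these markers ran from 1631 to 1682 in control libraries and from 2449 to 2601 in TGF-β1 libraries. Of the 10 tubular markers tested, 6 were called higher and 4 lower. CDH2 (304 to 629 CPM) and CDH6 (199 to 560 CPM) gained the most CPM. AQP1 rose the most in fold, by 2.105 on the log2 scale, at low level (0.397 to 1.72 CPM). KRT8 and KRT18 also rose, as did CUBN at low level (0.48 to 0.86 CPM). PAX8, PAX2, KRT19 and GGT1 fell (log2 fold changes of -0.73, -0.59, -1.34 and -0.58). Among 12 leukocyte markers, 9 were below 1 CPM in every library, and CD3E, CD3D and MS4A1 were among those at 0. The leukocyte sum ran from 99.8 to 109 CPM in control libraries and from 86.1 to 112 CPM in TGF-β1 libraries. Most of this sum was CD68 (96.7 to 71.0 CPM), which fell, as did CD14, while CSF1R rose (4.19 to 24.6 CPM). Endothelial markers summed to 2.00 to 2.39 CPM in control libraries and to 2.73 to 3.38 CPM in TGF-β1 libraries, and fibroblast and pericyte markers summed to 65.7 to 75.7 and 61.4 to 63.1 CPM, most of it LUM. Single markers within these sums moved in both directions. PDGFRB rose from 0.551 to 5.79 CPM and ESAM from 0.903 to 2.90 CPM, THY1 fell from 0.895 to 0.269 CPM, and CDH5 had 62 counts over the control libraries and 0 over the TGF-β1 libraries. The part of other cell types in the results was not tested.

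The promoters of these genes are shown first because NF-κB binds a short DNA element, the κB site, and several members are known targets of the factor. RefSeq promoter windows on GRCh38.p14, from 250 bases before to 50 bases after a transcript start, were found for 8 of the 10 genes, with 14 windows in all. RELB and NFKBIE had no window. The 10-letter κB consensus, searched on both strands, was found in 9 of the 14 windows and in 7 of the 8 genes, all except RELA. Of all 35116 RefSeq windows, 11.27% held it, as did 13.25% of 27305 genes. A looser form, GGGNNNNNCC on either strand, contains every match of the consensus. It was found in all 14 windows and in 58.67% of all windows. A match describes these letters only and is not evidence of binding. One stretch is printed for each of the 7 genes, on the strand of the gene, with the κB consensus match in capitals. In the same order they lie at chr14:35404801-35404850 (minus strand), chr11:102317265-102317372 (plus), chr6:137867172-137867217 (plus), chr3:101827747-101827796 (plus), chr4:102501300-102501329 (plus), chr5:151081057-151081086 (minus) and chr10:102395674-102395703 (plus).
NFKBIA: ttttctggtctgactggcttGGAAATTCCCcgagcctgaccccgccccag
BIRC3: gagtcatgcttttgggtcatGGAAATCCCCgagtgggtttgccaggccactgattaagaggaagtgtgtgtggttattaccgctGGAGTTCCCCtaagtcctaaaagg
TNFAIP3: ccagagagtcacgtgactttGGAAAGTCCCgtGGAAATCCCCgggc
NFKBIZ: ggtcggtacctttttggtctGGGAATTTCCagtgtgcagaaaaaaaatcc
NFKB1: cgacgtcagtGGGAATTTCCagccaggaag
TNIP1: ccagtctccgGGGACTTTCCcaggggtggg
NFKB2: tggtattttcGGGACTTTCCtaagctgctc

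The match of NFKBIA began 81 bases before its transcript start. BIRC3 had 2 matches, which began 199 and 135 bases before the start, and TNFAIP3 had 2, at 67 and 55 bases before it. The match of NFKBIZ shown began 223 bases before the start. The matches shown for NFKB1 (49 bases before), TNIP1 (42 bases before) and NFKB2 (21 bases before) fell inside exons listed in the deposited tables. For NFKB2 the transcript start was that at base 102395705. NFKB2 had more matches in listed exons, 176 bases before the same start and 107, 106 and 78 bases before that at 102394578. NFKBIZ had another match, 239 bases before a further start. On the strand of the gene, GGGAATTTCC stood in NFKBIZ and NFKB1, and GGGACTTTCC stood in TNIP1 and NFKB2. The matches shown for NFKBIA, BIRC3 and TNFAIP3 were matches on the other strand. Read on that strand, the match of NFKBIA is also GGGAATTTCC, and the first match of TNFAIP3 is also GGGACTTTCC. BIRC3 and TNFAIP3 shared GGAAATCCCC. Genes with matching letters differed in response: NFKBIA and BIRC3 fell, TNFAIP3 and NFKB2 rose, and NFKBIZ, NFKB1 and TNIP1 were not called, as the values below show.

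After TGF-β1, BIRC3 fell 10.1-fold and NFKBIA fell 2.32-fold, while RELB, NFKBIE, TNFAIP3 and NFKB2 rose by 1.21- to 1.62-fold. NFKB1, RELA, NFKBIZ and TNIP1 were not called. A gene was called when its adjusted p in the edgeR quasi-likelihood test was under 0.05. Thus 4 of the 10 genes were called higher and 2 lower, where 22.2% of all 14860 genes tested were called higher and 22.1% lower. That balance depended on the scaling, since 2134 genes were called higher and 4590 lower with total counts only, compared with 3294 and 3288, and 3 of the 10 genes were then called higher and 2 lower. The share of these genes called in either direction, 6 of 10, stood beside 44.3% for all genes tested. A fall or rise of at least 2-fold was called in 2 of the 10, beside 9.06% of all genes. Control and TGF-β1 libraries did not overlap in 7 of the 10, beside 55.6% of all genes. The median log2 fold change of the 10 was 0.08, compared with 0.01 for all genes tested. With so many genes called in these libraries, the calls alone do not set the group apart, and each gene is described by its size and direction of change.

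**Figure D1:**
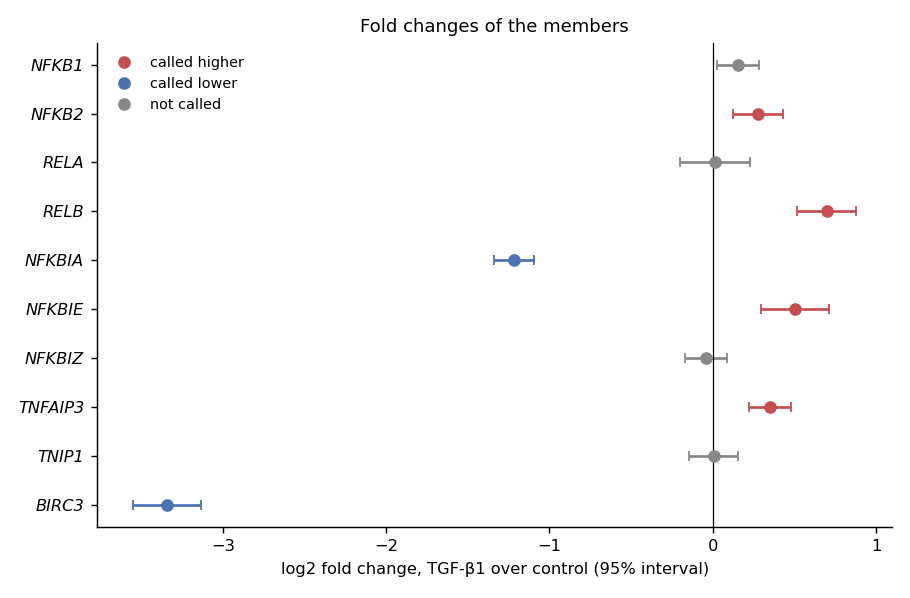
Log2 fold change of each of the 10 genes (TGF-β1 over control, points) with its 95% interval (bars), coloured by call. BIRC3 at -3.34 and NFKBIA at -1.22 lie far to the left, 4 genes lie to the right at 0.28 to 0.70, and the intervals of RELA, NFKBIZ and TNIP1 span 0.

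The subunits are given first, with levels in CPM. RELB (chr19:45001449-45038194, plus strand), the transactivating subunit of the alternative pathway, had 18.4, 17.9 and 16.0 CPM in control libraries and 30.2, 25.7 and 29.0 CPM in TGF-β1 libraries. Every TGF-β1 library was above every control library. RELB rose from 17.5 ± 1.27 to 28.3 ± 2.33 CPM (SD, n = 3 each), a log2 fold change of 0.70 ± 0.08 (SE) with an adjusted p of 5.12e-05 by edgeR.

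NFKB2 (chr10:102394110-102402529, plus strand) encodes p100, the precursor of p52 and itself an inhibitor of RelB dimers. Its values were 69.9, 74.2 and 65.2 CPM in control libraries and 91.1, 80.1 and 82.4 CPM in TGF-β1 libraries. The groups did not overlap, and TGF-β1 replicate 1 was the highest. NFKB2 rose by a log2 fold change of 0.28 ± 0.07 (adjusted p = 0.00749, edgeR). The call was lost when libraries were scaled by total counts only, at 0.17 with an adjusted p of 0.0694. That scaling moved the median of all genes by -0.11.

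NFKB1 (chr4:102501266-102617302, plus strand) encodes p105, the precursor of p50. It had 115, 108 and 101 CPM in control libraries and 119, 123 and 118 CPM in TGF-β1 libraries, which lay just above the controls with no overlap. Its log2 fold change was 0.15 ± 0.06 with a 95% interval of 0.03 to 0.28, and its adjusted p of 0.0521 by edgeR missed the threshold. The call was sensitive to the libraries used. Without TGF-β1 replicate 1 the adjusted p was 0.0269, and without control replicate 1 it was 0.0378. With a replicate block it was 0.0435. LOC105377621 and LOC105377347 overlap NFKB1 on the opposite strand, with 19 to 58 counts per library.

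RELA (chr11:65653601-65662946, minus strand) encodes the main transactivating subunit of the classical pathway. Its values were 54.6, 60.6 and 49.9 CPM in control libraries and 62.3, 54.8 and 49.4 CPM in TGF-β1 libraries, with full overlap. Its log2 fold change was 0.01 ± 0.10, with a 95% interval of -0.20 to 0.23 (adjusted p = 0.925, edgeR). A change within this interval was not detectable in these libraries. The estimate was -0.09 without TGF-β1 replicate 1, -0.05 without control replicate 3 and -0.09 with total counts only.

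**Figure D2:**
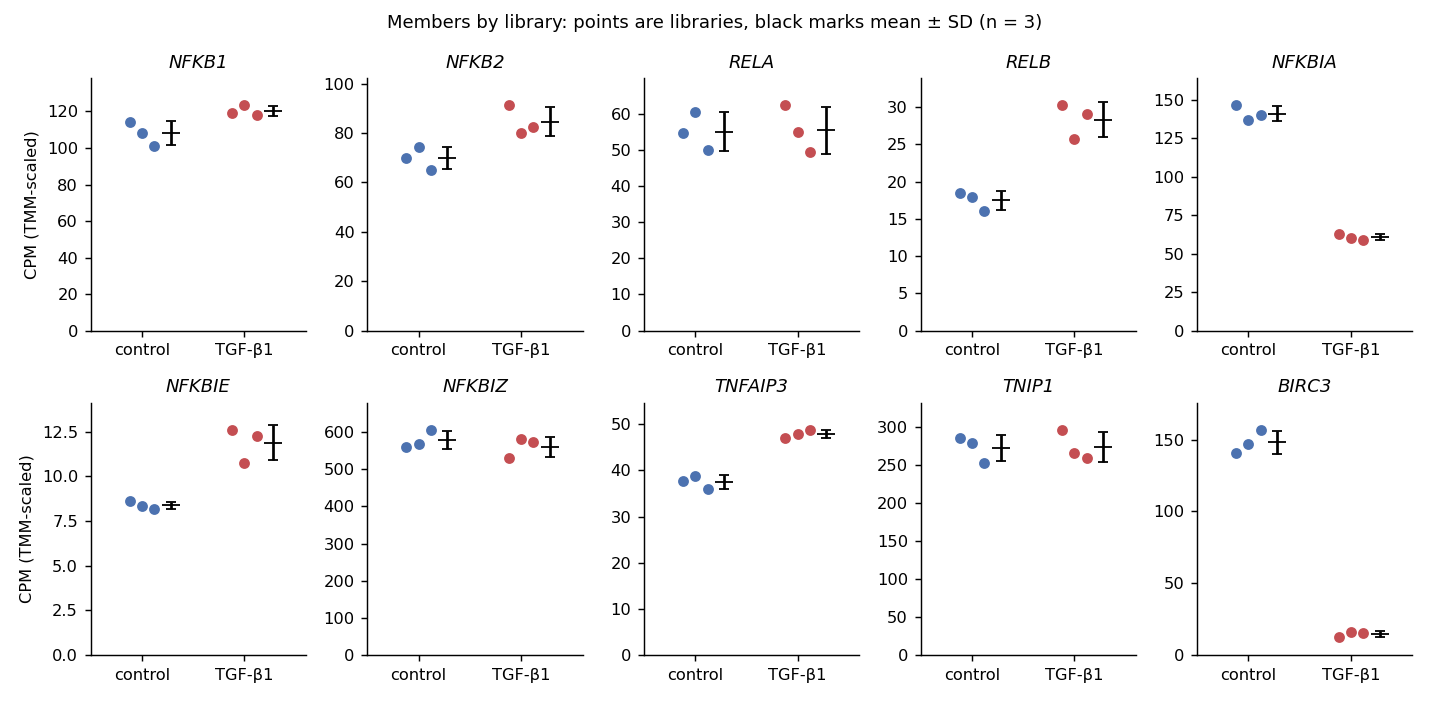
CPM (TMM-scaled, vertical axes from 0) of the 10 genes in each library, with points for the 3 control and 3 TGF-β1 libraries and black marks for the mean and SD. BIRC3 and NFKBIA fall clear of their controls, RELB, NFKB2, NFKBIE and TNFAIP3 lie above them, and the points of RELA, NFKBIZ and TNIP1 overlap.

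Because RELB and NFKB2 rose while RELA was not called, the makeup of the subunit transcripts was compared. TPM is a level corrected for gene length as well as depth, so levels of different genes can be set side by side as far as that length holds. The deposited tables list a single length per gene, such as 11393 bases for REL and 2547 for RELA. Whether these lengths fit the transcripts made in these cells was not tested. The shares were taken of the summed TPM of NFKB1, NFKB2, RELA, RELB and REL. REL, the gene of the remaining family member c-Rel, had 26.2 ± 1.11 CPM in control and 26.5 ± 5.66 CPM in TGF-β1 libraries. It was not called (log2 fold change 0.01, adjusted p = 0.965, edgeR). TGF-β1 replicate 1 had 19.97 CPM of REL, under the controls (25.52 to 27.53 CPM). Replicates 2 and 3 had 29.45 and 30.08 CPM, above them. The fold change of REL without replicate 1 is not given here. The summed TPM was 235.6 ± 11.6 in control and 250.4 ± 5.33 in TGF-β1 libraries (SD, n = 3 each).

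The share of RELB was 11.2, 10.6 and 10.7% in control libraries and 15.5, 14.1 and 16.2% in TGF-β1 libraries. It was higher in all 3 TGF-β1 libraries than in any control, by a mean of 4.40 percentage points. The share of RELA was 29.6, 32.1 and 29.8% in control libraries and 28.5, 26.8 and 24.6% in TGF-β1 libraries. It was lower in all 3 TGF-β1 libraries, by a mean of 3.86 points (difference -3.86). The exact permutation test, two-sided, gave p = 0.1 for both, the smallest value that 3 libraries against 3 allow, and 0.25 after adjustment over the 5 subunits. The difference in the share of NFKB2 was 1.06 points (exact p = 0.2), that of NFKB1 was -1.20 points (exact p = 0.4) and that of REL was -0.40 points (exact p = 0.6). None of the 5 shares could pass the threshold in this design. The shares are linked, since they add up to the whole.

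**Figure D3:**
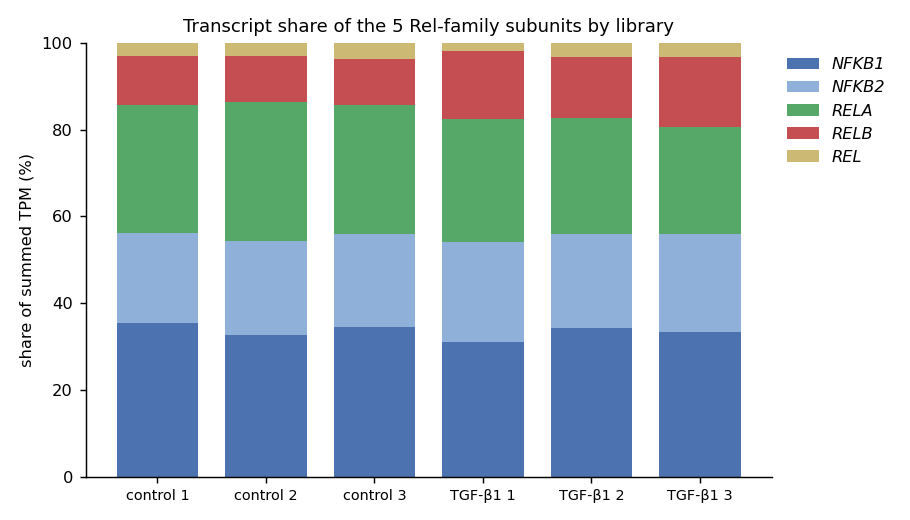
Share (%) of each of the 5 Rel-family subunit genes in their summed TPM, in stacked bars for the 3 control and 3 TGF-β1 libraries. The RELB segment takes 10.6 to 11.2% in the control bars and 14.1 to 16.2% in the TGF-β1 bars, and the RELA segment is narrower in the TGF-β1 bars.

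The inhibitor genes did not move together. NFKBIA (chr14:35401513-35404749, minus strand) encodes IκBα, which holds p50-RelA dimers in the cytoplasm and is resynthesized in response to NF-κB. It had 146, 137 and 139.7 CPM in control libraries and 62.9, 60.1 and 58.8 CPM in TGF-β1 libraries. The control values were all far above the TGF-β1 values, and the libraries within each group lay close together. NFKBIA fell from 141 ± 4.84 to 60.6 ± 2.09 CPM (SD, n = 3 each), a log2 fold change of -1.22 ± 0.06 (SE) with an adjusted p of 2.84e-08 by edgeR. These values rest on 9922 counts over the control libraries and 4324 over the TGF-β1 libraries. With each library left out in turn, the log2 fold change ran from -1.26 to -1.19.

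NFKBIE (chr6:44258166-44265551, minus strand) encodes IκBε, a slower-acting inhibitor of the same dimers. Its values were 8.60, 8.34 and 8.18 CPM in control libraries and 12.6, 10.8 and 12.3 CPM in TGF-β1 libraries. All TGF-β1 values were above all control values, and replicate 2 was the lowest of the TGF-β1 libraries. NFKBIE rose by a log2 fold change of 0.50 ± 0.09 (adjusted p = 0.00127, edgeR), a direction opposite to that of NFKBIA. The start-to-end span of POLR1C, a gene of an RNA polymerase subunit, overlaps that of NFKBIE on the opposite strand. POLR1C was also called higher, with a log2 fold change of 0.31 (adjusted p = 0.00325, edgeR). Whether exons of the genes overlap was not tested. Whether counting used the strand is not given in the sources used here, and without it reads of any shared exon bases cannot be told apart.

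NFKBIZ (chr3:101827990-101861022, plus strand) encodes IκBζ, a nuclear member that helps p50 activate a subset of target genes. It had 561, 568 and 607 CPM in control libraries and 531, 581 and 573 CPM in TGF-β1 libraries. The groups overlapped. The log2 fold change was -0.04 ± 0.06 with a 95% interval of -0.17 to 0.09 (adjusted p = 0.579, edgeR). NXPE3 overlaps NFKBIZ on the same strand and had a log2 fold change of -0.02, also not called.

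TNFAIP3 (chr6:137866317-137883312, plus strand) encodes A20, a ubiquitin-editing enzyme that shuts off signalling upstream of the IκB kinase. It had 37.7, 38.9 and 36.0 CPM in control libraries and 47.0, 47.9 and 48.8 CPM in TGF-β1 libraries. All TGF-β1 values were above all control values, and the spread within each group was small. TNFAIP3 rose 1.28-fold, a log2 fold change of 0.35 ± 0.06 (adjusted p = 0.000611, edgeR). WAKMAR2, which overlaps it on the opposite strand, had 1 to 5 counts per library.

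TNIP1 (chr5:151029943-151087685, minus strand) encodes ABIN1, which binds A20 and ubiquitin chains. Its values were 285, 279 and 253 CPM in control libraries and 296, 265 and 259 CPM in TGF-β1 libraries, and the groups overlapped. The log2 fold change was 0.01 ± 0.07 with a 95% interval of -0.14 to 0.16 (adjusted p = 0.953, edgeR). It was -0.07 without TGF-β1 replicate 1, -0.04 without control replicate 3 and -0.10 with total counts only, without a call in any of them.

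BIRC3 (chr11:102317373-102339403, plus strand) encodes cIAP2, a ubiquitin ligase of TNF receptor complexes and a known NF-κB target. It had 141, 147 and 157 CPM in control libraries and 12.4, 16.1 and 15.5 CPM in TGF-β1 libraries. Even the lowest control library was many times above the highest TGF-β1 library. BIRC3 fell from 148 ± 8.14 to 14.7 ± 2.00 CPM (SD, n = 3 each), and its log2 fold change was -3.34 ± 0.09 (adjusted p = 1.44e-09, edgeR). There were 10450 counts over the control libraries and 1036 over the TGF-β1 libraries. Leaving out each library in turn gave -3.42 to -3.24. Its paralog BIRC2 (cIAP1), which begins 7810 bases downstream of BIRC3, had 93.6 ± 3.86 CPM in control and 92.3 ± 3.93 CPM in TGF-β1 libraries and was not called, with a log2 fold change of -0.02 (adjusted p = 0.792, edgeR).

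Per length, the order of levels in control cells was NFKBIZ (459 ± 27.9 TPM), NFKBIA (301 ± 8.29), TNIP1 (112 ± 5.14), NFKB1 (80.5 ± 3.47), RELA (71.9 ± 6.45), BIRC3 (70.6 ± 5.18), NFKB2 (50.02 ± 2.81), RELB (25.5 ± 1.43), TNFAIP3 (14.5 ± 0.44) and NFKBIE (11.9 ± 0.10), each as mean and SD of 3 libraries. The ranges of NFKB1 and RELA overlapped, as did those of RELA and BIRC3, and all other neighbours were apart. In TGF-β1 cells NFKBIZ was still the highest, at 411 ± 30.9 TPM, and NFKBIA was next at 119 ± 2.08 TPM, close above TNIP1 at 104 ± 4.91 TPM. BIRC3 went from rank 6 to rank 10, at 6.45 ± 1.05 TPM. NFKBIE, at 15.5 ± 0.995 TPM, ran up to 16.21 TPM and so just reached the range of TNFAIP3, which began at 16.18 TPM. The deposited TPM carry no composition scaling, so they move with the total-count scaling given for NFKB2. The order of different genes also rests on the listed lengths, such as 8050 bases for TNIP1 and 1559 for NFKBIA. Their fit to the transcripts made in these cells was not tested.

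**Figure D4:**
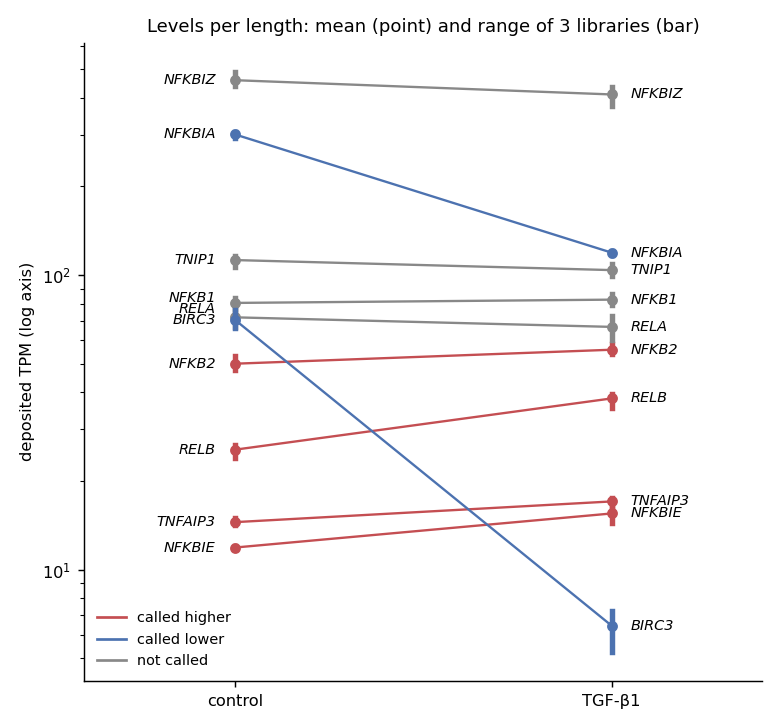
Deposited TPM (log axis) of the 10 genes in control and TGF-β1 cells, with points for the mean and bars for the range of 3 libraries, coloured by call. The lines of NFKBIA and BIRC3 drop, with BIRC3 going from 70.6 to 6.45 TPM, while the order of the others is kept.

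The rest of the pathway was described with 8 lists of 102 genes by role. Apart from the 10 genes above, 78 of the other 92 were tested, of which 21 were called higher, 32 lower and 25 not, beside 22.2% called higher, 22.1% lower and 44.3% in either direction among all genes tested. With total counts only, 14 were called higher and 37 lower. Their median log2 fold change was -0.04, beside 0.01 for all genes. Leaving out each library in turn gave 15 to 25 called higher and 28 to 35 called lower.

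Of the 5 Rel subunits, 2 were called higher and 3 were not called, with a median of 0.15. In the IκB family, 5 of 6 genes were tested, and 1 was called higher and 2 lower. Besides NFKBIA and NFKBIE, the called gene was BCL3, a nuclear IκB protein that partners p50 and p52. BCL3 fell from 20.1 ± 0.26 to 10.97 ± 0.53 CPM (log2 fold change -0.87, adjusted p = 3.08e-06, edgeR). NFKBID had a log2 fold change of -0.01 and was not called. Of the ubiquitin-editing genes, 4 of 10 tested were called higher and the other 6 were not called, with a median of 0.11. RNF11, a partner of A20, rose by 0.35 (adjusted p = 0.000217), and OTUD7B, a deubiquitinase, by 0.31 (adjusted p = 0.0153, edgeR). The OTUD7B call was lost without TGF-β1 replicate 2 (adjusted p = 0.0586), without control replicate 2 (0.0684) and with total counts only (0.0786). CYLD, another deubiquitinase of the pathway, had a log2 fold change of -0.002 and was not called. It had 87.3 CPM in TGF-β1 replicate 1, under the controls (101.4 to 111.9 CPM). Replicates 2 and 3 had 115.8 and 114.4 CPM, above them.

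Among 17 IAP, TRAF and adaptor genes, 2 were called higher and 5 lower, with a median of -0.03. BIRC3 had the largest fall of this list. TRAF5 (log2 fold change -0.49, adjusted p = 0.000914) and TRAF1 (-0.54, adjusted p = 0.0213) also fell. The call of TRAF1, which had under 3 CPM, was lost with DESeq2 (adjusted p = 0.122), with all genes with a count (0.0582) and without any one of 5 libraries (0.0507 to 0.0599). SHARPIN (0.31) and TRAF6 (0.27) were called higher, at adjusted p of 0.0198 and 0.0204 by edgeR. Both calls were lost with total counts only. SHARPIN also lost its call without control replicate 1 (adjusted p = 0.0725) or 3 (0.0834), and TRAF6 with DESeq2 (0.0523) and without any one of 4 libraries (0.0512 to 0.0808). RNF31, a subunit of the linear ubiquitin ligase, was listed with 351 counts in TGF-β1 replicate 1 and 21 to 73 in the other libraries. Its log2 fold change was 1.61 (adjusted p = 0.386), and -0.46 without that library.

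Of 11 kinase genes, 4 were called higher and 4 lower, with a median of 0.05. The catalytic subunits of the IκB kinase went in opposite directions. IKBKB, which encodes IKKβ of the classical pathway, fell from 36.1 ± 0.92 to 19.1 ± 1.83 CPM (log2 fold change -0.92, adjusted p = 3.53e-06, edgeR). CHUK, which encodes IKKα, rose from 56.1 ± 0.42 to 69.7 ± 4.08 CPM (0.31, adjusted p = 0.00149, edgeR). IKBKE (log2 fold change -0.86) and MAP3K8 (-0.35) fell. MAP3K7 (TAK1) rose by 0.21 and TBK1 by 0.19, and both calls were lost with total counts only. That of TBK1 was also lost without TGF-β1 replicate 3 (adjusted p = 0.0631) and without control replicate 1 (0.0592) or 2 (0.0724).

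Of 11 receptor genes tested, 2 were called higher and 7 lower, with a median of -0.61. TNFRSF1B, the gene of the second TNF receptor, fell from 19.3 ± 0.77 to 3.93 ± 0.32 CPM (log2 fold change -2.29, adjusted p = 1.24e-08, edgeR). TLR2 (-1.33), a sensor of bacterial lipoproteins, and IL1R1 (-0.81), the receptor of interleukin-1, fell. IL1RAP, the co-receptor of IL1R1, rose by 0.76, and TNFRSF12A, the receptor of TWEAK, rose by 0.41. Only 2 of 10 ligand genes were tested. IL18 fell by 2.02 on the log2 scale, and IL1A rose by 0.87 at under 2 CPM. The IL1A call was lost with DESeq2 (adjusted p = 0.0594) and without control replicate 2 (0.0501). The primary entries of TNF, LTA, LTB, TNFSF11 and CD40LG had 0 counts in every library.

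Of 27 target genes tested, 9 were called higher and 15 lower, with a median of -0.74. The target genes thus included rises and falls side by side. SAA2, VCAM1 and SAA1 had the largest falls, with log2 fold changes of -3.40, -2.96 and -2.90. SAA1 and SAA2 are near-identical, so their reads may be split wrongly. SAA1, at under 4 CPM, was at -3.60 without TGF-β1 replicate 3. GADD45B rose by 1.83, from 29.2 ± 1.76 to 104 ± 8.21 CPM, and PTGS2 by 2.06 at low level, with 21 counts over the control and 89 over the TGF-β1 libraries. IER3, listed at 3.32, had entries on alternate contigs that held most of its reads, so its value is uncertain. It was at 2.69 with the entries summed, at 4.19 without control replicate 1, and called higher in both. The 4 target genes with the highest CPM in control libraries, chosen after their values were seen, also differed in direction. CXCL8 rose from 2722 ± 30.8 to 3540 ± 157 CPM (log2 fold change 0.38). SOD2 fell from 1308 ± 12.8 to 412 ± 18.2 CPM (-1.67), C3 fell from 812 ± 9.45 to 441 ± 20.5 CPM (-0.88), and LCN2 fell from 596 ± 21.6 to 151 ± 19.6 CPM (-1.98).

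**Figure D5:**
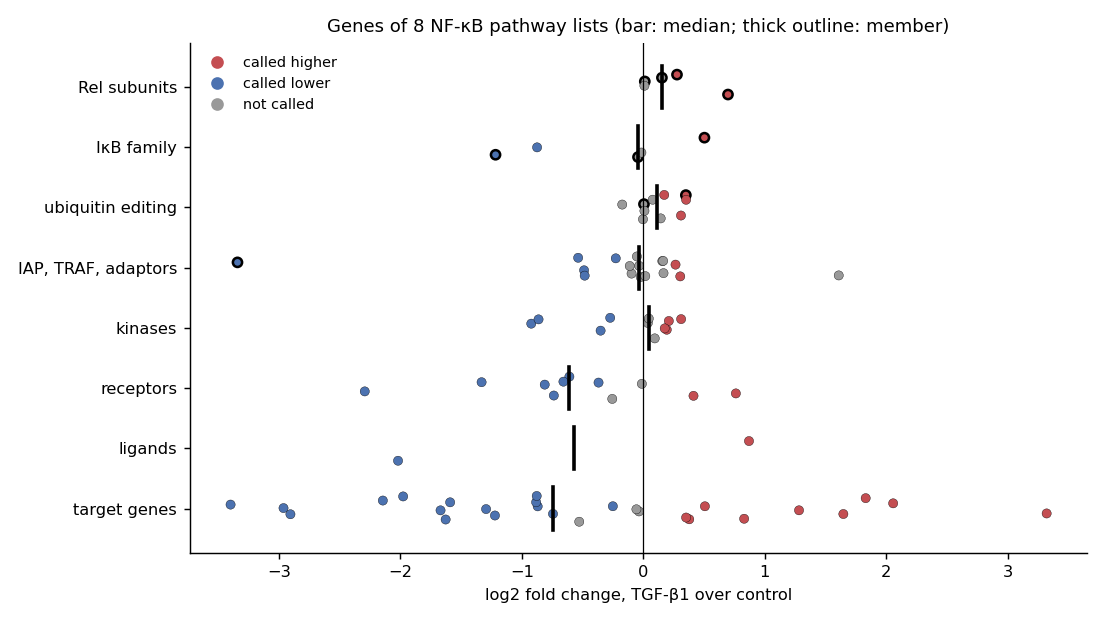
Log2 fold change (TGF-β1 over control) of every tested gene of the 8 pathway lists, 1 point per gene, coloured by call, with the list median as a bar and the 10 genes above in thick outline. Receptors (median -0.61) and target genes (median -0.74) lie mostly to the left, and the Rel subunits lie near or right of 0.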

How the data were processed

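Poly(A) RNA of HK-2 cells was sequenced by the study in 3 control and 3 TGF-β1 libraries. Reads with adapters or of low quality had been discarded by the authors. The submitters' processing notes name CASAVA, featureCounts 2.0.1, DESeq2 1.16.1 and hg38, without their roles. The aligner is not given in the sources used here. Per the file headers, each deposited table holds raw counts per gene with TPM and FPKM values, which the authors computed from counts and gene length. FPKM were not used further. Each table had 42095 entries, 41497 of them named, and 7 records broken over several lines were rejoined. Loci without a name (0.396 to 0.464% of counts) were left out. Total counts were 21.9 to 26.9 M per library. Counts could not be corrected for PCR copies.

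The counts were tested with edgeR 4.0.16 (R 4.3.3) over 14860 genes that passed filterByExpr with a minimum count of 10, with TMM scaling and the two-sided quasi-likelihood F test (robust). Benjamini-Hochberg adjustment covered all genes tested, and an adjusted p under 0.05 was called. Shares were compared by the exact permutation test in scipy 1.17.1 (Python 3.11.15, pandas 2.3.3). The edgeR fit was also run on simulated data, and the outcome is not reported here. Alternatives were DESeq2 1.42.0, limma-voom (limma 3.58.1), scaling by RLE or by total counts only, summing the entries of a name, a filter that kept any gene with a count, a stricter filter (mean of 50 counts or more), a fit blocked on replicate number, and 6 fits that each left out 1 library. Beyond the 10 genes, the 3 largest called changes in each direction of each list were named, and any gene of a list that was not called but had a log2 fold change over 1 in size. Other genes were named where a sentence says why or as neighbours, paralogs or markers. One gene of the marker lists is not reported here by name. The 10 genes, the lists and the tests were chosen with earlier results of these data known.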

Additional observations from a re-analysis of the deposited data

How the results depend on the processing

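Of the 10 genes, BIRC3, NFKBIA, RELB, NFKBIE and TNFAIP3 kept their direction and call under all 14 alternatives run, with any library left out. NFKB2 lost its call with total counts only (0.17). NFKB1 gained one with all genes with a count (0.16), with entries of a name summed (0.16), with a replicate block (0.16), and without TGF-β1 replicate 1 (0.15) or control replicate 1 (0.20). Directions turned for genes that were not called. RELA was at -0.008 with a mean of at least 50 counts and at -0.093 with total counts only, and from -0.090 to 0.089 with each library left out (negative without TGF-β1 replicate 1 or control replicate 3). TNIP1 was at -0.016 and -0.101 under the same settings, and from -0.067 to 0.042 with each library left out. RNF31 ran from -0.457, without TGF-β1 replicate 1, to 2.366. With total counts only, the shift of the median was -0.11 and the genes called higher numbered 2134, compared with 3294, and those called lower 4590, compared with 3288, since that scaling shifts every fold change. With each library left out in turn, 2646 to 3545 genes were called higher and 2687 to 3651 lower, and 4 to 5 of the 10 genes were called higher and 2 lower. The difference in share ran from 3.94 to 4.98 points for RELB, from -4.80 to -2.83 for RELA, from 0.77 to 1.46 for NFKB2, from -1.96 to -0.26 for NFKB1 and from -0.638 to 0.013 for REL, where it turned without TGF-β1 replicate 1. The deviations of same-numbered libraries correlated at 0.11, -0.01 and 0.08, so the labels' numbers were not taken to pair the samples, and not every library correlated best with its own number. With a replicate block 3396 genes were called higher and 3394 lower, and 5 of the 10 genes were higher. Unless stated, the causes were not tested.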

Other observations

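The reads of NFKBIB, the gene of IκBβ, lay on an alternate contig, with 117, 22 and 32 counts in control libraries and 37, 22 and 22 in TGF-β1 libraries, while its entry on chromosome 19 had at most 1 count. CSF1R, listed here among leukocyte markers, rose from 4.19 to 24.6 CPM, while CD14 fell from 2.55 to 0.76 CPM and CD68 from 96.7 to 71.0 CPM.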
